A study of Mus musculus with 16 samples.

Results

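The genes described here are 9 interferon-induced genes, namely Ifi27l2a, Ifitm1, Ifitm2, Ifitm3, Bst2, Isg15, Irf7, Tlr7 and Pydc3. They were taken by symbol from an RNA-seq table of 23279 symbols, and 9 of 9 were found, each listed once. Of the 9, 7 reached at least 1 FPKM (fragments normalized for transcript length and for how many fragments a library mapped) in at least 4 of 16 libraries and were tested among 10210 genes. Isg15 and Irf7 did not reach that level and were tested singly. Ifi27l2a, Ifitm1, Ifitm2, Ifitm3 and Bst2 reached 1 FPKM in 16 of 16 libraries. Tlr7 reached it in 8, all with BCR-ABL1, and Pydc3 in 7, of which 4 were the SHP2 wild-type libraries without BCR-ABL1. Both entered the fit through the groups where they were high, so counts over the 7 genes are a description and their calls are given also with no filter.

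The libraries were made from pre-B cells of the mouse, an early stage of the B lineage that BCR-ABL1 can turn leukaemic. BCR-ABL1 is an oncogenic fusion kinase that signals without a ligand, and SHP2 is a cytoplasmic tyrosine phosphatase whose gene is Ptpn11. The labels cross both in 4 groups of 4 libraries, numbered 0 to 3. Cells labelled BCR-ABL NULL (-/-) carried no fusion and were either SHP2 WT (+/+) or SHP2 NULL (-/-), and cells with BCR-ABL1 were likewise SHP2 WT (+/+) or SHP2 NULL (-/-). The labels do not say how SHP2 was removed or BCR-ABL1 introduced, nor strain or age. Nor do they say that a group's libraries stem from different mice or cultures, and p-values therefore rest on a spread between libraries that may be technical.

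Interferons bind cell-surface receptors whose kinases JAK1 and TYK2 activate transcription factors. A complex of these with IRF9 binds interferon-stimulated response elements near the starts of target genes. The products of such genes block viral entry, tether budding virus, conjugate to other proteins or amplify the sensing of foreign RNA. Type I interferon is also known to restrain the growth of B-cell precursors.

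Of the 9 genes, 8 were placed on RefSeq GRCm38.p6 by symbol. Ifitm2 (chr7:140954837-140959686), Ifitm1 (chr7:140967429-140969827) and Ifitm3 (chr7:141009590-141010744) are neighbours, and Irf7 (chr7:141263183-141266499) lies on the same chromosome. Isg15 (chr4:156199424-156200818), Bst2 (chr8:71534255-71537472), Ifi27l2a (chr12:103433873-103443680) and Tlr7 (chrX:167303380-167330574) lie elsewhere.

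Promoter windows, from 250 bases before to 50 bases after a RefSeq start, were matched for 6 of the 9 genes, with 1 start each. That start is the outer end of the gene for Isg15, Bst2 and Ifitm3, and lies 647, 3725 and 75 bases inside it for Ifitm1, Ifitm2 and Irf7, so outer starts of these 3 were not searched. They were searched on both strands for the core of the interferon-stimulated response element, GAAANNGAAA, which 3.44% of 32851 windows hold. They were also searched for the gamma-activated site, TTCNNNGAA, which 8.30% of them hold. Stretches of 90 bases are printed 5′ to 3′ on the gene's strand, with GAAANNGAAA matches in capitals, to show which of the genes carry the element near the start. They are Isg15 (chr4:156200839-156200928, minus), Bst2 (chr8:71537543-71537632, minus), Ifitm2 (chr7:140955962-140956051, minus), Ifitm3 (chr7:141010715-141010804, minus, of which the last 30 bases lie past the start) and Ifitm1 (chr7:140967986-140968075, plus).
Isg15: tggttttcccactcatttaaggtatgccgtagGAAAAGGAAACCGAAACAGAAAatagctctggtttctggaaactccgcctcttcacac
Bst2: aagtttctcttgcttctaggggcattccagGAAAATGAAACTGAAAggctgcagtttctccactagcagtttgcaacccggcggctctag
Ifitm2: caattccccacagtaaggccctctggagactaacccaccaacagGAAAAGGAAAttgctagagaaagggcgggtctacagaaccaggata
Ifitm3: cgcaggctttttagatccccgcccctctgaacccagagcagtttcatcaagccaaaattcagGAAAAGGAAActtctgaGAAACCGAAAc
Ifitm1: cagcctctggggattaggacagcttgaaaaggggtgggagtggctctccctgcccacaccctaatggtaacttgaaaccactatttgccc

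Isg15 held 3 overlapping matches between positions -78 and -57 relative to the start, and Bst2 held 2 overlapping ones between -130 and -115, the first of which overlaps a TTCNNNGAA match. Ifitm2 held 1 match between -46 and -37. Ifitm3 held 2 matches past the start, and its TTCNNNGAA match overlaps the second. The windows of Ifitm1 and Irf7 held 0 matches to either motif, which says only that these letters are not in those windows.

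Ptpn11 read 15.7 to 18.0 FPKM in the 8 SHP2 wild-type libraries and 2.87 to 7.43 FPKM in the 8 SHP2-null libraries, without overlap. All 12 B-lineage markers passed the filter, with sums of 2065 to 2764 FPKM per library. Summed FPKM ran from 348923 to 443702 per library, and the depth behind these values is unknown. One library stood apart, SHP2-null replicate 2 without BCR-ABL1. Of 17 macrophage markers in the table, 16 were highest there, and their sum was 539 FPKM against 37.1 to 81.7 FPKM in the other 15 libraries. The macrophage lysozyme gene Lyz2 read 403 FPKM there, while the complement gene C1qa was at 0. Of the sums in the other 15 libraries, 30.4 to 41.3 FPKM came from 1 marker, Ctss. Lyz2 ran from 1.48 to 34.3 FPKM in those 15, highest in SHP2-null replicate 3 without BCR-ABL1. Without SHP2-null replicate 2, Lyz2 still differed by -1.86 for BCR-ABL1 in SHP2-null cells (limma adjusted p = 0.139). Leaving out that library thus does not show that the rest hold equal macrophage RNA. In bulk RNA, fewer cells of a type and less RNA per cell cannot be told apart. Results of the 9 genes that rest on SHP2-null replicate 2 without BCR-ABL1 are given also without it.

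Loss of SHP2 in cells without BCR-ABL1 raised Ifi27l2a and lowered Pydc3, so that 2 of the 7 tested genes changed, where 1.54% of all genes tested did (limma, Benjamini-Hochberg adjusted p below 0.05). The same comparison had 3 of 7 at an unadjusted p below 0.05 (16.1% of all genes) and 1 of 7 whose groups did not overlap (9.09%). In cells with BCR-ABL1, loss of SHP2 changed 0 of 7 in limma and 0 at an unadjusted p below 0.05, where 0.313% and 3.65% of all genes did, and 0 of 7 had groups that did not overlap (3.1%).

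BCR-ABL1 in SHP2 wild type raised Ifi27l2a, Ifitm3 and Tlr7 and lowered Pydc3, which made 4 of 7, where 4.67% of all genes changed. With no filter on low values Tlr7 did not pass there (adjusted p = 0.0646). There, 5 of 7 had an unadjusted p below 0.05 (19.1% of all genes) and 4 of 7 had groups that did not overlap (11.7%). BCR-ABL1 in SHP2-null cells raised Tlr7, which made 1 of 7, where 1.26% of all genes changed, and 0 of the 5 genes that reached 1 FPKM in every library passed. At an unadjusted p below 0.05 the count was 2 of 7 (13.5%), and 2 of 7 had groups that did not overlap (7.07%). These comparisons share groups of libraries, so their results are not independent of each other.

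**Figure D1:**
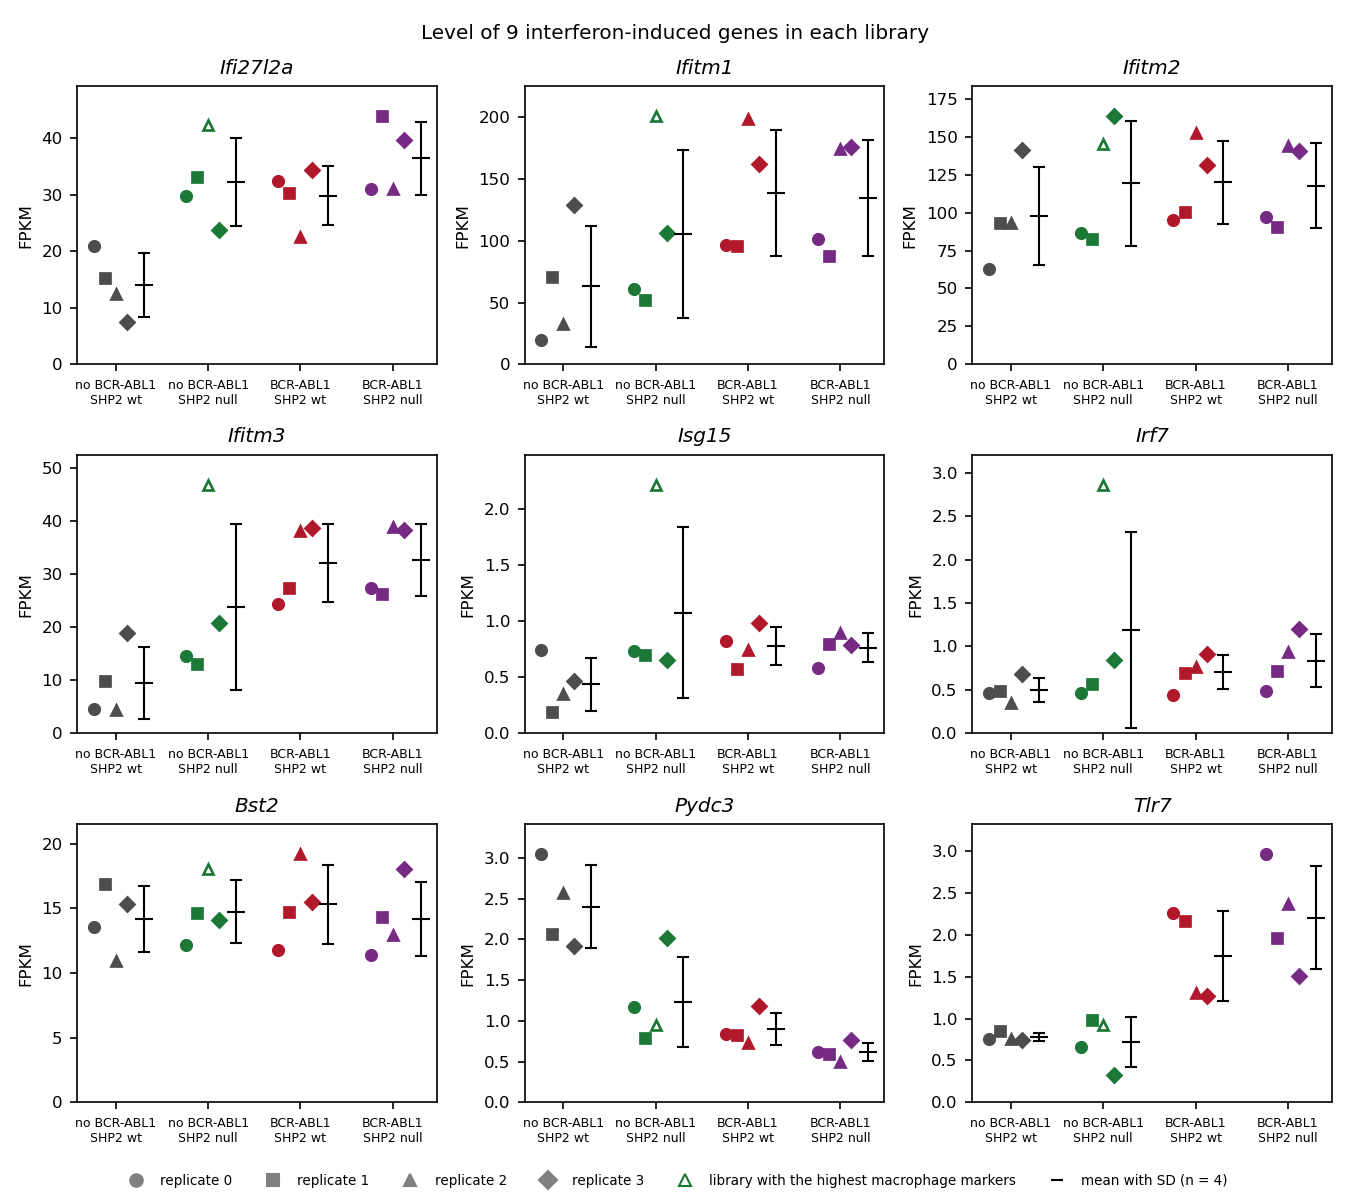
FPKM of the 9 genes in each of 16 libraries, by group, with marker shape for the replicate number, the mean and SD (n = 4) in black and SHP2-null replicate 2 without BCR-ABL1 as an open triangle. Ifi27l2a and Ifitm3 were lowest on average in SHP2 wild-type cells without BCR-ABL1, Pydc3 was highest there, and Tlr7 was higher in both groups with BCR-ABL1.

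Ifi27l2a encodes a small hydrophobic protein of the ISG12 family. In SHP2 wild-type cells without BCR-ABL1 it read 21.0, 15.3, 12.4 and 7.43 FPKM in replicates 0 to 3. In the SHP2-null cells without BCR-ABL1 it read 29.8, 33.2, 42.4 and 23.8 FPKM, and no library of one group overlapped the other. With BCR-ABL1, the SHP2 wild-type libraries read 32.4, 30.2, 22.4 and 34.4 FPKM and the null libraries 31.0, 44.0, 31.1 and 39.7 FPKM. The wild-type group without BCR-ABL1 was thus the low one, at 14.0 ± 5.67 FPKM (SD, n = 4), and the neighbours among the other 3 group means, from 29.9 to 36.4 FPKM, overlapped in range. Leaving out SHP2-null replicate 2, the null group without BCR-ABL1 averaged 28.9 ± 4.73 FPKM (SD, n = 3).

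On the log2(FPKM + 1) scale, which understates the change of low genes, loss of SHP2 without BCR-ABL1 raised Ifi27l2a by 1.20 ± 0.24 (SE, limma adjusted p = 0.0194). Within replicate numbers 0 to 3 the difference was 0.49, 1.06, 1.70 and 1.56, higher in 4 of 4. Without SHP2-null replicate 2 it was 1.06 (adjusted p = 0.0689), and without wild-type replicate 2 it was 1.17 (adjusted p = 0.0661), so that either library decides the call. The call was also lost when only the groups compared were fitted (limma adjusted p = 0.147). With the replicate number as a block the limma adjusted p was 0.0136, and 0.0411 with the block and without SHP2-null replicate 2. Adjusted p ran from 0.00753 to 0.147 over 24 alternatives.

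BCR-ABL1 raised Ifi27l2a in SHP2 wild-type cells by 1.10 ± 0.24 (limma adjusted p = 0.016), and this call was lost without wild-type replicate 2 without BCR-ABL1 (0.0544) and without replicate 0 or 3 of the wild-type libraries carrying BCR-ABL1 (0.0534 and 0.0515). It was also lost when only the groups compared were fitted (0.0509), and adjusted p ran from 0.00418 to 0.0544 over 24 alternatives. In SHP2-null cells its change with BCR-ABL1 was 0.18 ± 0.24 (adjusted p = 0.795), or 0.32 ± 0.25 without SHP2-null replicate 2 (0.591). Loss of SHP2 with BCR-ABL1 gave 0.28 ± 0.24 (adjusted p = 1). The interaction, the SHP2 effect with BCR-ABL1 minus that without it, was -0.92 ± 0.34 with an unadjusted p of 0.0164 and a limma adjusted p of 0.839, and -0.78 ± 0.34 without SHP2-null replicate 2 (adjusted p = 0.823). The SHP2 effects with and without BCR-ABL1 were therefore not shown to differ.

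Ifitm1, Ifitm2 and Ifitm3 encode small membrane proteins that hinder the fusion of viruses with cell membranes. Their sequences are alike and how the authors assigned shared reads is unknown here, so the split between them is uncertain. Ifitm3 read 4.61, 9.84, 4.46 and 18.9 FPKM in SHP2 wild-type cells without BCR-ABL1 and 14.6, 13.1, 46.8 and 20.8 FPKM in SHP2-null cells. In the groups with BCR-ABL1 Ifitm3 read 24.4, 27.4, 38.1 and 38.8 FPKM in SHP2 wild-type cells and 27.4, 26.3, 38.8 and 38.4 FPKM in SHP2-null cells. The 46.8 FPKM of SHP2-null replicate 2 was the highest of 16, and the wild-type libraries without BCR-ABL1 all lay below those with it.

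BCR-ABL1 raised Ifitm3 in SHP2 wild-type cells by 1.85 ± 0.40 on the log2 scale (limma adjusted p = 0.0147), and the call was lost without wild-type replicate 2 without BCR-ABL1 (1.61, adjusted p = 0.0615). In SHP2-null cells the difference was 0.60 ± 0.40 (adjusted p = 0.553), or 0.98 ± 0.36 without SHP2-null replicate 2 (adjusted p = 0.214). Loss of SHP2 without BCR-ABL1 gave 1.28 ± 0.40 (adjusted p = 0.136). Without SHP2-null replicate 2 that difference was 0.90 ± 0.36 (adjusted p = 0.341). With the replicate number as a block it passed (adjusted p = 0.0474), as it did without wild-type replicate 3 (0.0426), but with the block and without SHP2-null replicate 2 it did not (0.123).

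Among cells with the fusion, the Ifitm3 means of 32.2 ± 7.34 FPKM (SHP2 wild type) and 32.7 ± 6.82 FPKM (SHP2 null) differed by less than their SDs (SD, n = 4). The log2 difference was 0.03 ± 0.40 (limma adjusted p = 1). The Ifitm3 interaction was -1.25 ± 0.57 with all libraries (unadjusted p = 0.0429, adjusted p = 0.839) and -0.87 ± 0.49 without SHP2-null replicate 2 (adjusted p = 0.854).

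Ifitm1 read 19.9, 70.6, 32.9 and 129 FPKM in SHP2 wild-type and 61.3, 52.2, 201 and 106 FPKM in SHP2-null cells without BCR-ABL1. The libraries with BCR-ABL1 read 96.4, 95.9, 199 and 162 FPKM in SHP2 wild-type and 101.4, 87.7, 174 and 176 FPKM in SHP2-null cells. All group ranges overlapped, and a single group without BCR-ABL1 spanned 19.9 to 129 FPKM. None of the 4 pairwise comparisons passed for Ifitm1, the largest difference being 1.39 ± 0.51 for BCR-ABL1 in SHP2 wild-type cells (limma adjusted p = 0.144). Loss of SHP2 without BCR-ABL1 gave 0.86 ± 0.51 for Ifitm1 (adjusted p = 0.435), and 0.48 ± 0.51 without SHP2-null replicate 2 (0.760). BCR-ABL1 in SHP2-null cells gave 0.49 ± 0.51 (0.731), and 0.87 ± 0.51 without that library (0.443).

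Ifitm2 was the most even of the 3, with 62.7, 93.2, 93.3 and 141 FPKM in SHP2 wild-type and 86.3, 82.5, 145 and 164 FPKM in SHP2-null cells without BCR-ABL1. Ifitm2 in cells with BCR-ABL1 read 95.2, 100.1, 153 and 132 FPKM in SHP2 wild-type and 97.2, 90.3, 144 and 140.4 FPKM in SHP2-null cells. Its 4 group means, 97.6 to 119.9 FPKM, overlapped in range, and limma adjusted p ran from 0.107 to 1 over all comparisons and alternatives. Loss of SHP2 without BCR-ABL1 gave 0.28 ± 0.27 for Ifitm2 (limma adjusted p = 0.642), and 0.17 ± 0.29 without SHP2-null replicate 2 (0.852). Loss of SHP2 with BCR-ABL1 gave -0.03 for Ifitm1 and -0.03 for Ifitm2, and both signs turned with quantile normalization (0.06 and 0.05).

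**Figure D2:**
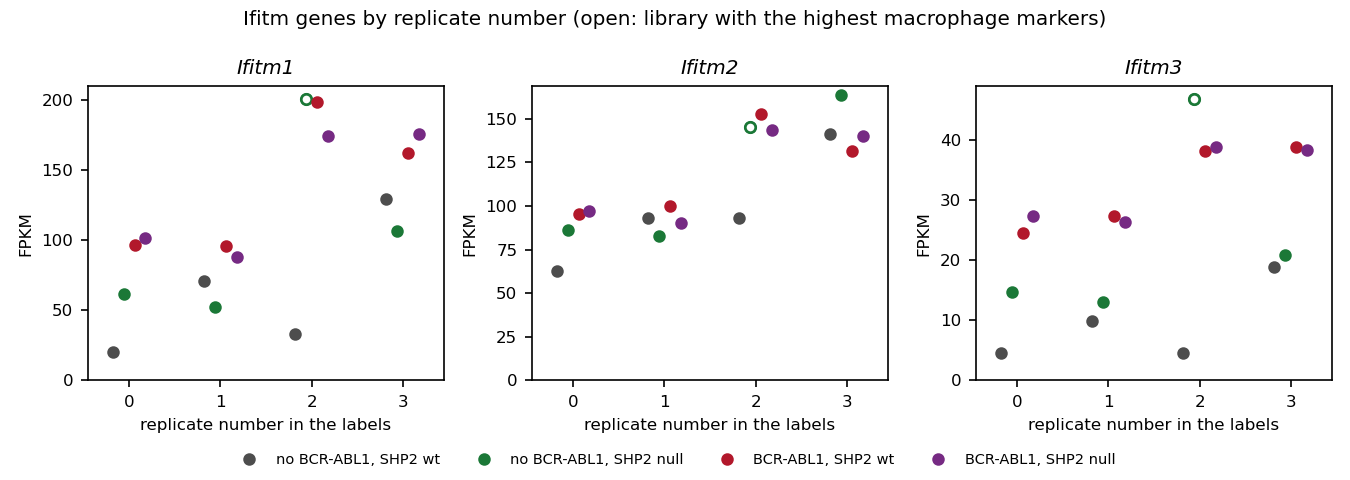
FPKM of Ifitm1, Ifitm2 and Ifitm3 against the replicate number in the labels, 1 point per library, coloured by group, with SHP2-null replicate 2 without BCR-ABL1 open. In both groups with BCR-ABL1, replicates 2 and 3 lie above replicates 0 and 1 for each gene.

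The plot of the Ifitm genes by replicate number shows how the libraries of a group differ. In both groups with BCR-ABL1 replicates 2 and 3 read 131.6 to 152.6 FPKM for Ifitm2 and replicates 0 and 1 read 90.3 to 100.1 FPKM. For Ifitm3 the same libraries read 38.1 to 38.8 FPKM and 24.4 to 27.4 FPKM. The labels do not say what the number stands for, and its part in these levels was not tested beyond the block.

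Bst2 encodes tetherin, a membrane protein that holds budding virus at the cell surface, and its promoter holds overlapping matches to the interferon-stimulated response element. Its group means differed least among the 9 genes, relative to their level. Without BCR-ABL1 it read 13.6, 16.9, 10.9 and 15.3 FPKM in SHP2 wild-type and 12.2, 14.7, 18.1 and 14.1 FPKM in SHP2-null cells. Bst2 in cells with BCR-ABL1 read 11.8, 14.7, 19.2 and 15.5 FPKM in SHP2 wild-type and 11.4, 14.4, 12.9 and 18.0 FPKM in SHP2-null cells. All ranges overlapped, the group means ran from 14.2 to 15.3 FPKM, and the Bst2 differences between -0.10 and 0.10 on the log2 scale had an SE of 0.16 (limma adjusted p of 0.812 to 1 in the pairwise comparisons). Leaving out SHP2-null replicate 2, the null mean without BCR-ABL1 was 13.7 ± 1.29 FPKM (SD, n = 3), and the Bst2 difference for loss of SHP2 turned from 0.06 to -0.04 (adjusted p = 0.946) and that for BCR-ABL1 in SHP2-null cells from -0.06 to 0.04 (0.948).

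Isg15 encodes a ubiquitin-like protein that is conjugated to other proteins, and its window holds the most GAAANNGAAA matches of the 6. Its level was low throughout, with 0.746, 0.188, 0.353 and 0.463 FPKM in SHP2 wild-type and 0.736, 0.700, 2.21 and 0.653 FPKM in SHP2-null cells without BCR-ABL1. Isg15 in cells with BCR-ABL1 read 0.822, 0.576, 0.743 and 0.982 FPKM in SHP2 wild-type and 0.578, 0.799, 0.891 and 0.787 FPKM in SHP2-null cells. The value of SHP2-null replicate 2 without BCR-ABL1 was more than any other library's. Without it that group averaged 0.697 ± 0.0418 FPKM (SD, n = 3), against 1.08 ± 0.759 FPKM with it (n = 4).

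Irf7 encodes a transcription factor that drives interferon and interferon-induced genes in a feedback loop. In SHP2 wild-type cells without BCR-ABL1 it read 0.467, 0.485, 0.351 and 0.685 FPKM, and in SHP2-null cells 0.469, 0.569, 2.86 and 0.847 FPKM. In cells with BCR-ABL1 Irf7 read 0.441, 0.694, 0.760 and 0.909 FPKM in SHP2 wild-type and 0.491, 0.719, 0.941 and 1.19 FPKM in SHP2-null cells. The Irf7 groups overlapped in every comparison, and without SHP2-null replicate 2 the null group without BCR-ABL1 averaged 0.628 ± 0.195 FPKM (SD, n = 3).

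Exact two-sided permutation tests of Isg15 and Irf7 in the 4 pairwise comparisons gave p from 0.0857 to 0.886, where the smallest that 4 against 4 libraries allow is 0.0286, and adjusted over the 8 tests the lowest was 0.342. For loss of SHP2 without BCR-ABL1 the log2 difference of Isg15 was 0.48 (exact permutation p = 0.114) and 0.25 without SHP2-null replicate 2 (p = 0.171). For Irf7 it was 0.43 (exact permutation p = 0.171) and 0.12 without that library (p = 0.371). For BCR-ABL1 in SHP2-null cells Isg15 differed by -0.18 (exact permutation p = 0.8) and Irf7 by -0.15 (p = 0.83), and by 0.05 (p = 0.486) and 0.17 (p = 0.371) without that library.

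Within replicate numbers 0 to 3, Irf7 was higher in the SHP2-null library in 4 of 4 without BCR-ABL1, by 0.00233, 0.08, 1.51 and 0.13. Isg15 was higher there in 3 of 4. These differences were not tested as pairs, since 4 pairs cannot reach an exact two-sided p below 0.05.

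**Figure D3:**
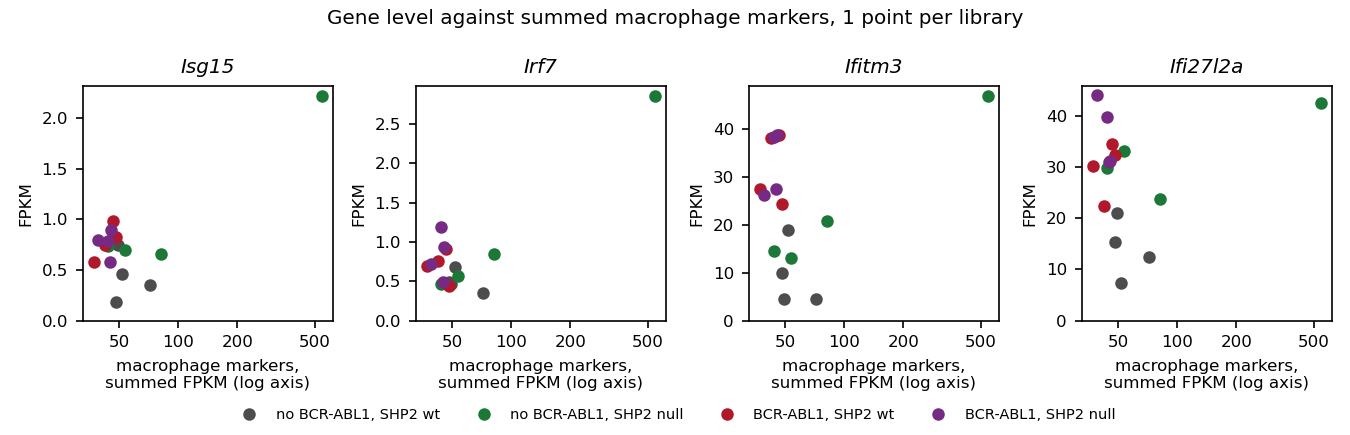
FPKM of Isg15, Irf7, Ifitm3 and Ifi27l2a against the summed FPKM of 17 macrophage markers on a log axis, 1 point per library, coloured by group. SHP2-null replicate 2 without BCR-ABL1, at 539 FPKM of markers, holds the highest Isg15, Irf7 and Ifitm3, while 1 other library, of 44.0 FPKM, exceeds it for Ifi27l2a.

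The plot of gene level against macrophage markers shows how far 1 library carries these genes. Isg15, Irf7, Ifitm1 and Ifitm3, 4 of the 9, were highest in that library, and the other 5 were not. Summed macrophage markers ran from 48.0 to 71.7 FPKM in SHP2 wild-type and from 43.8 to 539 FPKM in SHP2-null cells without BCR-ABL1, and from 37.1 to 48.4 and 38.8 to 45.3 FPKM with it. The part of macrophage RNA in the levels of that library was not tested.

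Tlr7 encodes an endosomal receptor for single-stranded RNA whose signal runs through MYD88 to IRF7. In the 8 libraries without BCR-ABL1 it was low, with 0.755, 0.856, 0.758 and 0.748 FPKM in SHP2 wild-type and 0.666, 0.979, 0.925 and 0.327 FPKM in SHP2-null cells. Tlr7 in cells with BCR-ABL1 read 2.26, 2.16, 1.31 and 1.26 FPKM in SHP2 wild-type and 2.97, 1.97, 2.37 and 1.51 FPKM in SHP2-null cells. No library with BCR-ABL1 overlapped any without it, while SHP2 wild-type and null ranges overlapped with and without it.

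In SHP2-null cells BCR-ABL1 raised Tlr7 by 0.89 ± 0.16 on the log2 scale (limma adjusted p = 0.011). That call held when any of the 16 libraries was left out (0.011 to 0.0475). It held with no filter on low values (0.0245) and without SHP2-null replicate 2 (0.95, 0.0115), and it was lost when only the 2 groups compared were fitted (0.0664). In SHP2 wild-type cells the Tlr7 rise was 0.61 ± 0.16 (limma adjusted p = 0.0406), and leaving out 1 library ended this call for 9 of 16, with adjusted p of up to 0.14. It also missed with no filter on low values (0.0646), median-ratio scaling (0.0502) and quantile normalization (0.0557). Without SHP2-null replicate 2 it held (0.0345). Loss of SHP2 without BCR-ABL1 gave -0.06 ± 0.16 for Tlr7 (adjusted p = 0.876), and -0.12 without that library (0.817).

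Tlr7 is known to be abundant in plasmacytoid dendritic cells. Summed over 11 dendritic markers, the libraries with BCR-ABL1 read 1.02 to 1.82 FPKM in SHP2 wild-type and 1.53 to 3.40 FPKM in null cells, against 0.526 to 1.37 and 0.736 to 2.35 FPKM without it. Of these sums, Cox6a2 alone gave 0.53 to 1.22 and 0.87 to 2.50 FPKM with BCR-ABL1, against 0.12 to 0.30 and 0.09 to 0.68 FPKM without it. Pacsin1 went the other way, at most 0.0131 FPKM with BCR-ABL1 and 0.0237 to 0.0946 FPKM without it. Of the 11 markers 1 passed the filter, Cox6a2, and it rose with BCR-ABL1 in SHP2-null cells by 0.99 ± 0.20 (limma adjusted p = 0.020). It reached 1 FPKM in 4 libraries, all with BCR-ABL1, and so entered through the groups where it was high, and its call was lost when any of 3 libraries was left out (SHP2-null replicate 3 without BCR-ABL1, 0.0752, and SHP2-null replicates 2 and 3 with it, 0.0933 and 0.0585). Siglech, which marks plasmacytoid dendritic cells, stayed at or below 0.163 FPKM in all 16 libraries. The part of such cells in Tlr7 was not tested.

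Pydc3 encodes a pyrin-domain protein of the interferon-inducible Ifi200 cluster, whose members are alike in sequence and may share reads, so its values are uncertain. RefSeq lists the symbol only as a synonym of Ifi208. It fell with loss of SHP2 without BCR-ABL1 and with BCR-ABL1 in SHP2 wild type. Without BCR-ABL1 it read 3.05, 2.07, 2.57 and 1.92 FPKM in SHP2 wild-type and 1.17, 0.791, 0.944 and 2.02 FPKM in SHP2-null cells. The cells with BCR-ABL1 read 0.845, 0.832, 0.731 and 1.18 FPKM in SHP2 wild-type and 0.618, 0.589, 0.496 and 0.769 FPKM in SHP2-null cells. The wild-type cells without BCR-ABL1 were highest, and SHP2-null replicate 3 without BCR-ABL1 lay within their range.

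BCR-ABL1 lowered Pydc3 in SHP2 wild-type cells, with a log2 change of -0.84 ± 0.15 (limma adjusted p = 0.00353), and the call held in 16 of 16 fits that left out 1 library and over all 23 alternatives (adjusted p of 0.000554 to 0.0164). In SHP2-null cells the Pydc3 difference was -0.44 ± 0.15 (adjusted p = 0.184), although no library of one group overlapped the other, and -0.49 ± 0.16 without SHP2-null replicate 2 (0.141). Loss of SHP2 without BCR-ABL1 lowered Pydc3, with a log2 change of -0.63 ± 0.15 (adjusted p = 0.041), and the null library was lower in 3 of 4 replicate numbers.

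The call of Pydc3 for loss of SHP2 was lost with no filter on low values (limma adjusted p = 0.0666), and when any of 13 of the 16 libraries was left out (adjusted p of 0.05 to 0.125), SHP2-null replicate 2 among them (-0.57, adjusted p = 0.125). With the replicate block its limma adjusted p was 0.0169, and 0.0503 with the block and without that library. Loss of SHP2 with BCR-ABL1 gave -0.23 ± 0.15 for Pydc3 (adjusted p = 1).

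**Figure D4:**
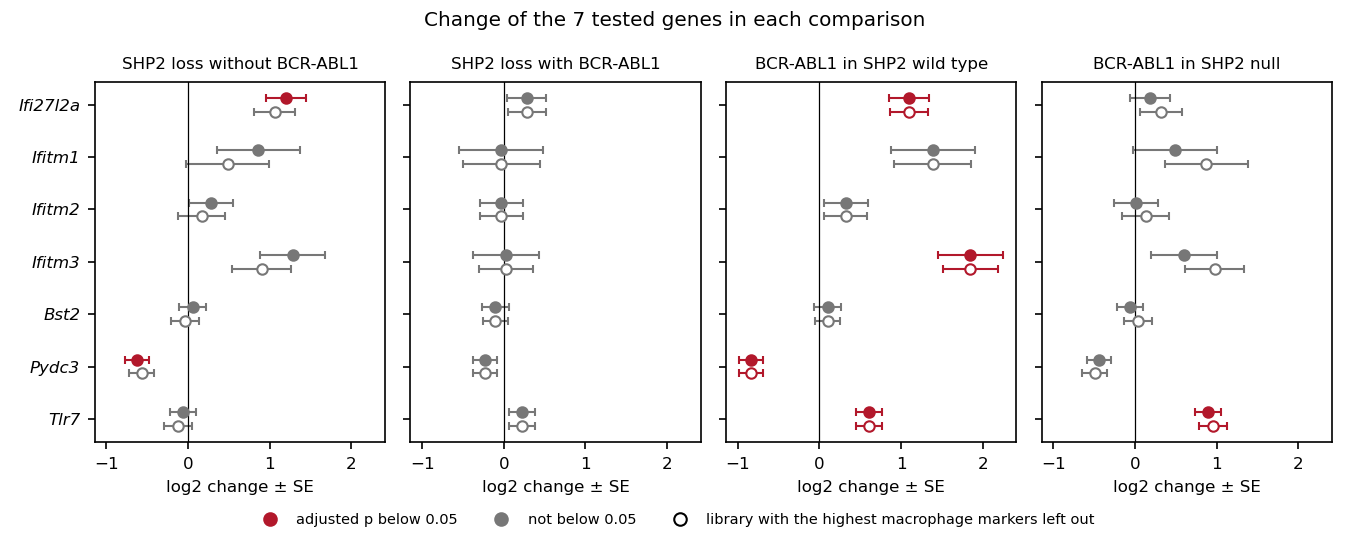
Log2 change with its SE for the 7 tested genes in the 4 pairwise comparisons, with all 16 libraries (filled) and without SHP2-null replicate 2 without BCR-ABL1 (open), red where the limma adjusted p is below 0.05. With that library left out, the red points of SHP2 loss without BCR-ABL1 are gone, while those for BCR-ABL1 remain.

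The plot of changes with and without the library sets the comparisons side by side. Without SHP2-null replicate 2, 0 of the 7 genes passed for loss of SHP2 without BCR-ABL1 (1.01% of all genes did) and 0 in the interaction (0.00979%). There 3 rose and 1 fell with BCR-ABL1 in SHP2 wild type (6.23% of all genes changed), and 1 rose with it in SHP2-null cells (1.72%). With the replicate block and all libraries, loss of SHP2 without BCR-ABL1 raised 2 and lowered 1 of the 7 (5.75% of all genes changed), the added gene being Ifitm3, and loss of SHP2 with BCR-ABL1 changed 0 of 7 (0.47%). For BCR-ABL1 in SHP2-null cells the block left 1 of 7, Tlr7, where 5.27% of all genes changed. In the interaction 0 of 7 genes passed in limma, where 0% of all genes did, and 2 of 7 had an unadjusted p below 0.05, where 5.79% of all genes did.

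Other cell markers also moved with these comparisons. For loss of SHP2 without BCR-ABL1, 7 mast cell and basophil markers summed to 8.19 to 14.1 FPKM in SHP2 wild-type and 0.246 to 14.5 FPKM in null libraries. Cma1, a mast cell protease gene, fell (-1.35 ± 0.22, limma adjusted p = 0.00435), but not in every alternative setting (limma adjusted p of up to 0.119). Cma1 reached 1 FPKM only in the SHP2 wild-type libraries without BCR-ABL1 and in SHP2-null replicate 2 without it (1.75 FPKM). It thus entered the fit through the group where it was high. Of the 4 tested markers 2 had differences above 0, and 0 without SHP2-null replicate 2. With BCR-ABL1 the mast cell and basophil sum was 1.41 to 7.38 FPKM in SHP2 wild-type and 0.848 to 3.52 FPKM in null cells. In SHP2 wild-type cells Cma1 (-1.97, limma adjusted p = 8.48e-05) and the mast cell carboxypeptidase gene Cpa3 (-2.14, 0.00817) fell with BCR-ABL1. The other 2 of 4 tested markers were higher there, Kit by 0.64 (limma adjusted p = 0.354). Cma1 read 0 FPKM in every library with BCR-ABL1, and Cpa3 reached 1 FPKM with it only in SHP2 wild-type replicate 3 (1.39 FPKM). Both thus entered the fit mainly through libraries without BCR-ABL1. Over the alternative settings the limma adjusted p for BCR-ABL1 in SHP2 wild-type cells was at most 0.000575 for Cma1 and 0.0452 for Cpa3. Mcpt8 read 0.0855 to 0.226 FPKM without BCR-ABL1 and 0.298 to 3.66 FPKM with it. The 10 neutrophil markers summed to 0.792 to 1.08 FPKM in SHP2 wild-type cells without BCR-ABL1 and 0.872 to 20.2 FPKM with it, and Elane was at 0 in 14 of 16 libraries. In SHP2-null cells the neutrophil sums were 0.399 to 4.50 and 0.135 to 6.54 FPKM. Markers of T and NK cells summed to 0.302 to 0.573 FPKM in SHP2 wild-type and 0.384 to 3.47 FPKM in null cells without BCR-ABL1, and to 0.714 to 1.81 and 1.00 to 2.09 FPKM with it. Markers of erythroid cells and megakaryocytes summed to 2.29 to 10.7 and 0.495 to 2.53 FPKM without BCR-ABL1, and to 1.56 to 4.59 and 2.55 to 5.23 FPKM with it. Of these, 1 was tested, the globin gene Hbb-b1, which differed by -1.5 ± 0.45 for loss of SHP2 without BCR-ABL1 (limma adjusted p = 0.117). Stromal markers summed to at most 0.116 FPKM in any library. The part of these cells in the results was not tested.

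Around the 9 genes, 159 other genes of the interferon system were listed, of which 154 were in the table and 106 passed the filter. Of 17 interferon genes in the table, 12 were at 0 in all 16 libraries and all 17 stayed below 1 FPKM, with sums of 0.122 to 0.380 FPKM. The receptor and its signalling chain were present, with Ifnar1 at 10.5 ± 0.697 FPKM and Ifnar2 at 18.9 ± 1.34 FPKM in SHP2 wild-type cells without BCR-ABL1 (SD, n = 4). Stat2 averaged 4.17 ± 0.909 FPKM and Irf9 averaged 6.22 ± 0.614 FPKM in the same cells.

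**Figure D5:**
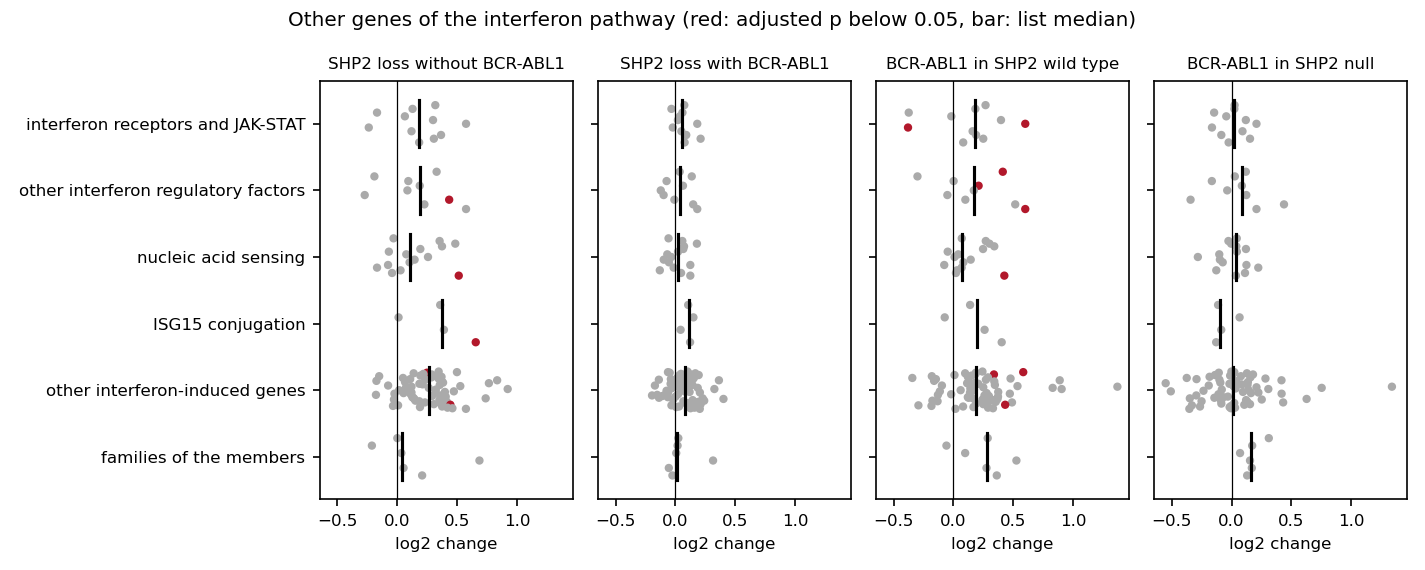
Log2 change of each tested gene of 6 lists of the interferon system in the 4 pairwise comparisons, 1 point per gene, red where the limma adjusted p is below 0.05, with a bar at each list's median. Differences above 0 number 89 of 106 for SHP2 loss without BCR-ABL1, 74 for SHP2 loss with it, 85 for BCR-ABL1 in SHP2 wild type and 57 for BCR-ABL1 in SHP2-null cells, and few points are red. The share of all genes above 0 was not counted.

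As the plot of pathway genes shows, loss of SHP2 without BCR-ABL1 raised 5 and lowered 0 of the 106 genes (1.54% of all genes). An unadjusted limma p below 0.05 held for 38 (16.1% of all genes). The median log2 change was 0.20 against 0.02 over all genes tested. The 12 B-lineage markers had a median of 0.19 with 11 of 12 above 0, so a median above 0 was not confined to interferon genes. Of these 12 markers, 0 passed and 2 had an unadjusted limma p below 0.05. Tap1, a peptide transporter of antigen presentation, rose from 27.2 ± 1.72 to 37.4 ± 2.16 FPKM (SD, n = 4, limma adjusted p = 0.00454). Unc93b1, the chaperone that brings TLR7 to endosomes, rose from 28.0 ± 2.93 to 40.3 ± 2.27 FPKM (adjusted p = 0.017). Irf5, a factor activated downstream of TLR7, rose from 14.4 ± 0.748 to 19.9 ± 2.15 FPKM (adjusted p = 0.0137).

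Ube2l6, the conjugating enzyme for ISG15, rose from 6.93 ± 1.31 to 11.6 ± 2.99 FPKM (adjusted p = 0.0286), and Daxx, a histone chaperone, from 12.9 ± 0.976 to 15.5 ± 0.618 FPKM (adjusted p = 0.0434). Tap1 and Irf5 held in 16 of 16 fits that left out 1 library. Unc93b1, Ube2l6 and Daxx did not pass without SHP2-null replicate 2 (limma adjusted p of 0.0563, 0.0615 and 0.125), and were lost in 4, 4 and 15 of the 16 such fits. Without that library 3 of the 106 rose, Tap1, Irf5 and Irf8 (0.47, adjusted p = 0.00823), the median was 0.16 and 88 of 106 differences were above 0, against 89 with it. With the replicate block 21 rose and 1 fell, where 5.75% of all genes changed, and without SHP2-null replicate 2 the share of all genes was 1.01%.

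By list, with some genes in more than 1, the SHP2 effect without BCR-ABL1 passed for 0 of 11 receptor and JAK-STAT genes, against 1.54% of all genes. It passed for 1 of 9 on the list of other interferon regulatory factors, which also held the corepressor genes Irf2bp1 and Irf2bp2. It passed for 1 of 15 genes of nucleic acid sensing and 1 of 4 of ISG15 conjugation. The count was 2 of 65 for other interferon-induced genes and 0 of 6 for family members of the 9 genes. The medians of these lists ran from 0.04 (family members) to 0.38 (ISG15 conjugation). Without SHP2-null replicate 2 those 2 medians were -0.01 and 0.22. Among the family members, Ifi27l1 averaged 20.6 ± 3.63 FPKM in SHP2 wild-type and 37.4 ± 22.1 FPKM in SHP2-null cells (SD, n = 4, limma adjusted p = 0.327). Mndal, of the Ifi200 cluster like Pydc3, averaged 48.4 ± 6.87 and 49.9 ± 2.43 FPKM in those groups (adjusted p = 0.858).

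Loss of SHP2 with BCR-ABL1 changed 0 of the 106 genes in limma, with 0 also at an unadjusted p below 0.05, where 0.313% and 3.65% of all genes did, and the median was 0.06 against -0.02 over all genes. In the interaction 0 of 106 passed, with 11 at an unadjusted p below 0.05 (5.79% of all genes) and a median of -0.16 against -0.04 over all genes. The B-lineage markers had an interaction median of -0.14, with 1 of 12 above 0.

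BCR-ABL1 in SHP2 wild-type cells raised 7 and lowered 1 of the 106, where 4.67% of all genes changed, with 34 at an unadjusted p below 0.05 (19.1% of all genes) and a median of 0.18 against 0.04 over all genes. Tap1 rose to 37.0 ± 2.33 FPKM (limma adjusted p = 0.00338) and Unc93b1 to 37.8 ± 1.71 FPKM (0.0245). Of the transcription factor genes, Irf1 rose from 19.5 ± 0.716 to 26.4 ± 2.42 FPKM (0.0276) and Irf9 to 9.94 ± 0.942 FPKM (0.0315). Jak1, the receptor-bound kinase, fell from 29.6 ± 2.57 to 22.5 ± 2.02 FPKM (0.023).

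Irf2bp2, a corepressor gene, rose from 16.8 ± 0.625 to 19.6 ± 0.734 FPKM (limma adjusted p = 0.0335), Epsti1 from 9.82 ± 0.892 to 12.7 ± 0.683 FPKM (0.0435) and Cmpk2, a mitochondrial nucleotide kinase gene, from 1.03 ± 0.203 to 2.04 ± 0.258 FPKM (0.0464). Each of these 8 calls other than that of Tap1 was lost when 1 of 5 to 13 libraries was left out. Without SHP2-null replicate 2 the count was 18 higher and 1 lower, where 6.23% of all genes changed. BCR-ABL1 in SHP2-null cells changed 0 of 106, where 1.26% of all genes changed, with 12 at an unadjusted p below 0.05 (13.5% of all genes) and a median of 0.02 against -0.01 over all genes. That count was 1 without SHP2-null replicate 2, and 3 higher and 2 lower with the block, where 1.72% and 5.27% of all genes changed.

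Among the 9 genes themselves, over the 15 libraries other than SHP2-null replicate 2, log2 levels of Ifitm1 and Ifitm3 had a Pearson r of 0.94, Ifitm1 and Ifitm2 of 0.85 and Ifitm2 and Ifitm3 of 0.68. Ifi27l2a and Isg15 had r = 0.71, and Pydc3 was negatively related to Ifitm3 (r = -0.80), Tlr7 (-0.78) and Ifi27l2a (-0.71). These points share libraries and groups, and the Ifitm genes may share reads. Isg15 and Irf7 had r = 0.50 over 15 libraries and 0.83 with the library of high macrophage markers.

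Patterns were also compared with tested genes outside the 9, leaving out predicted genes (Gm, RIKEN and LOC symbols), digit-initial symbols and small RNAs. Among these, the most alike to Ifi27l2a over the 15 libraries were Cerk (r = 0.97), Cd97 (0.96) and Cdkn2d (0.96). Ifitm3 was most like Stxbp6 (0.97), Cacnb2 (0.96) and Vipr2 (0.95), and Ifitm1 most like Cyp4f16 (0.93), Tmem107 (0.93) and Lgals3bp (0.92), the last of which is itself interferon-induced. Tlr7 was most like Zfp780b (0.94), Mbnl2 (0.94) and D4Wsu53e (0.93), and Pydc3 most like Ublcp1 (0.94), Trib1 (0.93) and Rai14 (0.92). For Ifitm2 they were H19 (0.96), Dpcd (0.95) and Cxcr5 (0.95). Isg15 (Tcta, 0.87), Irf7 (Bcl2l2, 0.92) and Bst2 (Tmbim6, 0.84) had weaker nearest patterns than Ifi27l2a or Ifitm3.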

How the data were processed

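PolyA RNA from 16 samples was sequenced in pairs with a stranded kit. The authors deposited FPKM values by gene symbol, made, per the submitters' processing notes, with Bowtie and Cufflinks on mm10 (GRCm38). Their versions, the annotation and the treatment of shared reads were not given in the sources used here. FPKM hold no counts, so depth is unknown. Values of 254 symbols listed more than once were summed. The 10210 genes that reached 1 FPKM in 4 or more libraries were fitted as log2(FPKM + 1) with limma 3.58.1 in R 4.3.3, with 4 group means and a trended prior, two-sided, Benjamini-Hochberg adjusted over all genes and called below 0.05. Isg15 and Irf7, below the filter, had exact permutation tests, also in R 4.3.3. Group values and correlations between genes were computed in Python 3.11.15. The fit was tested on simulated data.

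The members and lists were chosen with earlier results of these data known. Named genes were the 9 members, called genes of each list (up to 4 a list), the 3 nearest patterns and marker genes. A called marker gene is not reported here. Mndal, Ifnar1, Ifnar2 and Stat2 were chosen after their values were seen. Other pseudocounts, filters, scalings, a replicate block and leaving out each library made 23 alternative settings, and 1 more, the block without SHP2-null replicate 2, was chosen after seeing the data.

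The libraries were loaded in sets of 1 per group, per the labels' protocols, which do not tie the number to the set. Deviations of same-number libraries correlated at 0.189 to 0.51 (SHP2 loss without BCR-ABL1), 0.218 to 0.783 (SHP2 loss with it) and 0.242 to 0.68 (BCR-ABL1 in SHP2-null cells). These were over 0.1 in every pair, the rule used for taking the numbers as pairs. Of 8 libraries in each comparison, 6, 4 and 7 correlated best with their own number. For SHP2 loss with BCR-ABL1, 4 of 8 is no more than in BCR-ABL1 in SHP2 wild-type cells, where the rule failed. Single pairs were therefore not shown there. Calls and counts are from the fit without the block, and the blocked value is given where it changes a call or a count.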

Additional observations from a re-analysis of the deposited data

Results flagged for a closer look

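Single libraries far from the other 3 of their group were looked for in 36 sets, 9 genes in 4 groups. A library counted as far where its gap to the nearest other, as a share of the group's range, passed Dixon's critical value for 4 samples, which chance passes in about 1 in 20 sets. Isg15 at 2.213 FPKM (gap 0.947 of the range) and Irf7 at 2.86 FPKM (0.842) stood apart in SHP2-null replicate 2 without BCR-ABL1, the library with the highest macrophage markers. Tlr7 at 0.8563 FPKM stood above the other 3 SHP2 wild-type libraries without BCR-ABL1 in replicate 1 (0.905), in a group whose SD was 0.0515 FPKM. The causes were not tested.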

How the results depend on the processing

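For loss of SHP2 without BCR-ABL1, 1 gene of the 9 passed with a pseudocount of 0.1, with no filter on low values, with a mean of at least 5 FPKM, with quantile normalization and with the replicate block without SHP2-null replicate 2, and 0 with only the groups compared. Over all genes the count was 157, and 70 with a mean of at least 5 FPKM, 34 with only the groups compared, 587 with the replicate block and 304 with the block without SHP2-null replicate 2. Leaving out 1 library at a time gave 0 to 3 of the 9 genes and 80 to 164 of all genes.

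For loss of SHP2 with BCR-ABL1 the count of all genes was 32, and 11 with a mean of at least 5 FPKM, 68 with the block without SHP2-null replicate 2 and 20 to 35 leaving out 1 library. The interaction gave 0, and 3 with no filter, 4 with the block without that library and 0 to 1 leaving out 1. BCR-ABL1 in SHP2 wild-type cells gave 477, and 186 (2 of the 9) with a mean of at least 5 FPKM, which removes Pydc3 and Tlr7, and 235 to 636 (1 to 4 of the 9) leaving out 1. In SHP2-null cells it gave 129, and 33 (0 of the 9) with a mean of at least 5 FPKM, 30 (0) with only the groups compared, 538 with the block, 758 with the block without SHP2-null replicate 2 and 49 to 176 leaving out 1.

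In BCR-ABL1 in SHP2 wild-type cells the replicate numbers did not pair by the rule (r = 0.0549 for replicate 3). Of 8 libraries, 4 correlated best with their own number, as many as for SHP2 loss with BCR-ABL1, which met the rule. For BCR-ABL1 in SHP2 wild-type cells the block gave 1231 genes, 1685 without SHP2-null replicate 2, and Ifitm1 passed with it (limma adjusted p = 0.0367). The block changed no member's call other than those given.

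Signs turned only for differences that passed in no alternative. For loss of SHP2 with BCR-ABL1 they were Ifitm1 (0.0643 with quantile normalization, -0.183 to 0.165 leaving out 1 library), Ifitm2 (0.0527, and -0.133 to 0.0955), Ifitm3 (-0.0907 to 0.124) and Bst2 (-0.218 to 0.00633). Without BCR-ABL1 they were Bst2 (-0.0538 to 0.14, and -0.0506 with the block without SHP2-null replicate 2) and Tlr7 (-0.135 to 0.0575). For BCR-ABL1 they were Bst2 in SHP2 wild-type cells (-0.0099 to 0.211) and, in SHP2-null cells, Bst2 (-0.174 to 0.0363, and 0.0481 with the block without that library) and Ifitm2 (-0.139 to 0.188). The causes were not tested. Groups of 4 libraries and unknown depth limit what the lowest genes, Isg15 and Irf7, can show.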
